A study of Homo sapiens with 6 samples.

Results

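A set of 10 genes used as markers of liver progenitor cells and of cancer stem-like cells was followed from the parental to the lenvatinib resistant Huh7 line. They were *CD44*, *CD24*, *PROM1*, *EPCAM*, *SOX9*, *KRT7*, *KRT19*, *KRT8*, *KRT18* and *SPP1*, taken by gene symbol, and all 10 were found among the 19974 annotated genes of the expression table. Huh7 is a human hepatocellular carcinoma cell line. RNA was sequenced from 3 samples of untreated Huh7 parental cells (Huh7 P, genotype labelled WT) and 3 samples of lenvatinib resistant cells (Huh7 LR, also WT). Huh7 LR was raised from Huh7 P over about 10 months in lenvatinib, an inhibitor of several receptor tyrosine kinases, at doses that started at 1 μM and ended at 20 μM. Because 1 resistant line was made, an effect of the drug and a drift between separately grown lines cannot be told apart, and the methods describe the resistant line as kept in 20 μM lenvatinib without saying whether the drug was in the medium at RNA harvest. The question addressed is whether the resistant line carries more or less of the transcripts that mark progenitor and stem-like states.

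In the embryo, hepatocytes and bile duct cells arise from a shared progenitor, the hepatoblast, and in injured liver cells with mixed hepatocyte and duct features appear again. Such cells carry surface glycoproteins (EpCAM, CD24, CD133 and CD44), the transcription factor SOX9, the duct keratins 7 and 19 and the secreted protein osteopontin, and the same markers are used in liver cancer to define cells with colony-forming capacity. Keratins 8 and 18, by contrast, build the filaments of all simple epithelia, hepatocytes included. Keratin filaments are made of pairs, in which a type II keratin (7 or 8) joins a type I keratin (18 or 19).

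Each of the 6 libraries held 62738937 to 71427573 counted reads, and 17531 genes and loci had enough counts to test. Adjusted p-values throughout come from the quasi-likelihood test of edgeR with the Benjamini-Hochberg method, over all that were tested. Genes are said to rise or fall where this p was under 0.05, and are called where it was under 0.001 and the level changed by more than 2-fold. The hepatocyte identity of the line was visible in all libraries. The summed level of 9 hepatocyte lineage genes was 43652 to 52776 CPM (counts scaled to library size with TMM factors) in Huh7 P and 56034 to 59115 CPM in Huh7 LR. Of these 9 genes, 5 rose and 0 fell at an adjusted p under 0.05, and the fibrinogen gene *FGB* alone was called, with a log2 fold change of 2.49. Of all genes and loci tested, 23.3% were higher and 22.4% lower at that threshold, and 4.43% were called higher. The log2 fold change of *HNF4A*, which encodes a master regulator of hepatocyte genes, was -0.06 (edgeR adjusted p of 0.608). In FPKM (the authors' values, scaled for length and library size), *HNF4A* had means of 61.5 ± 5.41 in Huh7 P and 83 ± 27.8 in Huh7 LR (SD over 3 libraries). These FPKM values overlapped between the lines. Markers of other cells were also examined. DCN, TYROBP, HLA-DRA, CDH5, TEK and KDR had 0 counts in all libraries. The 6 fibroblast markers summed to 2.16 to 2.28 CPM in Huh7 P and 5.02 to 8.02 CPM in Huh7 LR, where *COL1A1* and *PDGFRB* were higher. The 6 leukocyte markers, of which *CD68* and *LYZ* held nearly all the reads and both fell, summed to 128 to 138 CPM in Huh7 P and 53.3 to 60.2 CPM in Huh7 LR. The 5 endothelial markers, of which *PECAM1* held nearly all the reads and rose, summed to 38.8 to 47.5 CPM and 65.0 to 71.2 CPM. *VWF*, with at most 26 counts in a library, also rose (log2 fold change 2.95, edgeR adjusted p of 0.0179). *COL1A1* was called higher (1.84) and *LYZ* was called lower (-2.79). The call of *COL1A1* was lost without Huh7 P replicate 3 (edgeR adjusted p of 0.00105). The part of these markers in the results on *CD44*, a gene that many cell types express, was not tested.

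Among the 10 markers, *CD44* and *KRT19* fell in Huh7 LR, *EPCAM* rose by less than 2-fold, and *CD24*, *PROM1*, *SOX9*, *KRT8* and *KRT18* did not pass the test. *KRT7* and *SPP1* were almost absent from both lines and had too few counts to test. In RNA from whole cultures, fewer cells that carry a transcript and less of it in each cell cannot be told apart. Thus 2 of 8 tested markers were called, both lower, where 6.21% of all genes and loci tested were called, 1.78% lower and 4.43% higher. At an adjusted p under 0.05 without a fold threshold, 1 marker was higher and 2 were lower of the 8. This share is close to the background, since 45.7% of all genes and loci tested differed at that threshold (23.3% higher and 22.4% lower). The median log2 fold change of the 8 markers was -0.15 and that of all genes and loci tested was 0.00.

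**Figure D1:**
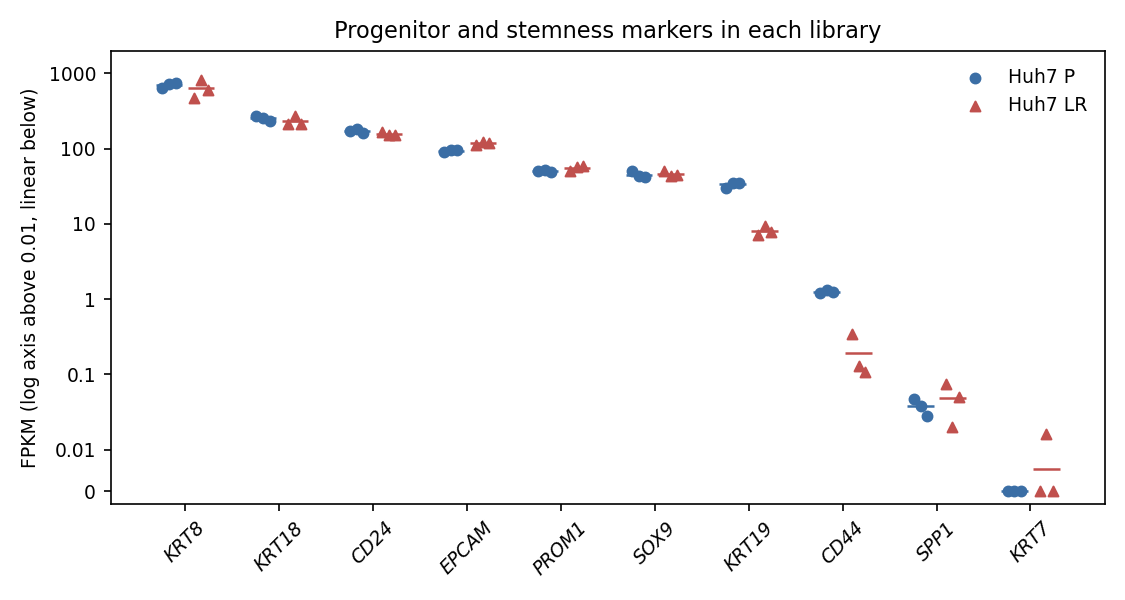
FPKM (the authors' values, scaled for length and library size) of the 10 markers in each of the 3 Huh7 P (blue circles) and 3 Huh7 LR (red triangles) libraries, with the mean of each line as a bar, on an axis that is logarithmic above 0.01 and linear below it. *KRT19* and *CD44* have the widest gaps between the lines, with means of 33.4 against 8.09 FPKM and 1.25 against 0.194 FPKM. *EPCAM* separates by a narrower gap, with 91 to 95.4 FPKM in Huh7 P and 113 to 122 FPKM in Huh7 LR. *SPP1* and *KRT7* lie at the bottom in both lines.

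*CD44* encodes the cell surface receptor for hyaluronan and also binds osteopontin. The gene (ENSG00000026508) lies on the plus strand of chromosome 11, from 35138870 to 35232402 in GRCh38, with 21 merged exons. The parental libraries held 314, 333 and 310 reads of it and the resistant ones 78, 31 and 33. All 3 resistant libraries lay below all 3 parental ones, and the first Huh7 LR library held more than double the counts of either other. *CD44* went from a mean of 4.84 ± 0.517 to one of 0.708 ± 0.424 CPM (SD over 3 libraries). This is a 6.85-fold fall, or -2.78 ± 0.32 (standard error) on the log2 scale, with a 95% interval of -3.48 to -2.07 (edgeR adjusted p of 4.99e-05). Only 0.291% of all genes and loci tested had a lower log2 fold change. Without Huh7 LR replicate 1 the fall was 10.4-fold, and without each other library it was between 5.72-fold and 7.19-fold. The level was modest before the fall. In Huh7 P, 46.0% of annotated genes had a lower mean FPKM than *CD44*, and in Huh7 LR 34.9% had. The antisense gene *CD44-AS1* shares 84 exon bases with it, and without strand its reads there could be counted as *CD44*. The gene-level counts do not separate the standard and variant splice forms of *CD44*.

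As *CD44* had the largest change of the set, the 250 bases upstream of its RefSeq start are shown (RefSeq, GRCh38.p14, chr11:35138921-35139170, plus strand, 5′ to 3′). RefSeq places this start further along than GENCODE 29, whose gene begins at 35138870, so the window lies inside the gene as GENCODE draws it. Letters in capitals are matches to the GC box GGGCGG, on either strand.
CD44 upstream window: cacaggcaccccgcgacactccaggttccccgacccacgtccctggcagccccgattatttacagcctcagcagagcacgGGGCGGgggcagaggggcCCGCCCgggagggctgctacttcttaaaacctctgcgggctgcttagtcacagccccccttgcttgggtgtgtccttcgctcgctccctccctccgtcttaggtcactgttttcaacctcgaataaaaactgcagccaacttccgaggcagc
The window held 2 matches, at -170 and -152 from the RefSeq start, 1 on each strand, and was 62.4% G and C, against a median of 58.0% over 35116 promoter windows of the same length. At least 1 match was found in 42.6% of those windows and as many as in *CD44* in 24.3%. A letter match describes the sequence and says nothing of binding in these cells.

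*KRT19* encodes keratin 19, a type I keratin of bile ducts and hepatic progenitors. The gene (ENSG00000171345) lies on the minus strand of chromosome 17, from 41523617 to 41528308. Reads of it numbered 3270, 3259 and 3465 in the parental libraries, against 676, 977 and 795 in the resistant ones. The lines did not overlap, and the libraries within each line lay close together. The level went from a mean of 50.5 ± 4.24 to one of 12.0 ± 1.81 CPM (SD over 3 libraries). This is a 4.21-fold fall, or -2.07 ± 0.11 (standard error) on the log2 scale, with a 95% interval of -2.32 to -1.82 (edgeR adjusted p of 3.92e-07), and 0.667% of all genes and loci tested had a lower log2 fold change. By FPKM, *KRT19* moved from rank 1990 among annotated genes in Huh7 P to rank 6585 in Huh7 LR, so a clear signal of 8.09 ± 1.15 FPKM (SD, n = 3) remained. *KRT19* has 5 named pseudogenes in GENCODE 29, which could have taken some of its reads.

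**Figure D2:**
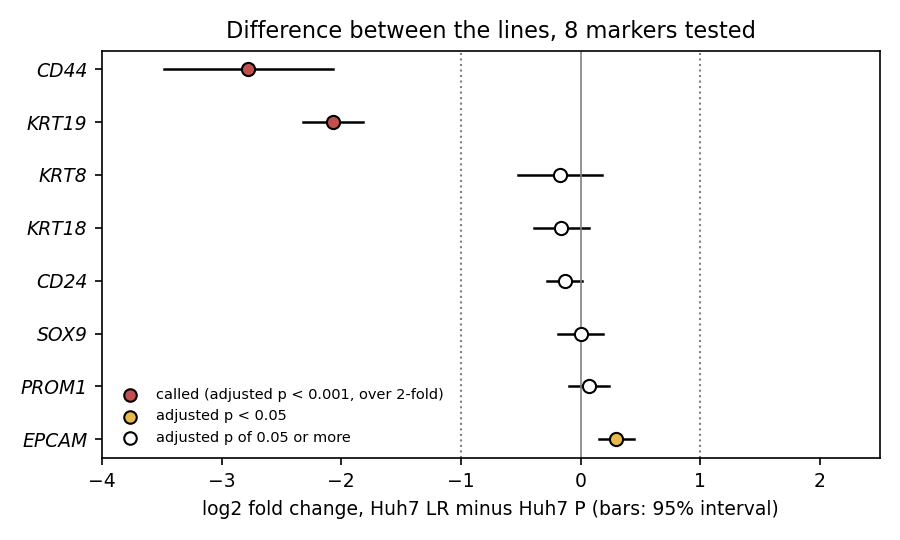
Log2 fold change between Huh7 LR and Huh7 P for the 8 markers with enough counts to test, with 95% intervals from edgeR's fit as bars and dotted lines at a change of 2-fold. *CD44* and *KRT19* lie wholly beyond the 2-fold line at -2.78 and -2.07, *EPCAM* lies at 0.30, and the intervals of the other 5 include 0.

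*EPCAM*, which encodes the epithelial cell adhesion molecule, was the 1 marker that rose. The gene (ENSG00000119888) lies on chromosome 2, from 47345158 to 47387601. It reached 169, 179 and 180 CPM in the parental libraries, against 205, 227 and 219 CPM in the resistant ones, without overlap between the lines. By CPM, lines without overlap were found for 4 of the 8 tested markers and for 55.9% of all genes and loci tested. The rise was 1.23-fold, or 0.30 ± 0.07 (standard error) on the log2 scale (edgeR adjusted p of 0.00443), and its 95% interval of 0.15 to 0.45 excludes a 2-fold rise.

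*PROM1* encodes prominin-1 (CD133), a membrane glycoprotein of cell protrusions, and *CD24* encodes a small surface protein anchored by a lipid. *PROM1* (ENSG00000007062, chromosome 4, 15963076 to 16084378) reached 221, 233 and 219 CPM in the parental libraries, against 212, 248 and 247 CPM in the resistant ones. The lines overlapped, with the lowest and the highest value both in Huh7 LR, and the log2 fold change of 0.07 (95% interval -0.10 to 0.24, edgeR adjusted p of 0.479) did not pass the threshold. *CD24* (ENSG00000272398, chromosome 6, 106969831 to 106975627) reached 447, 453 and 426 CPM in the parental libraries, against 416, 396 and 396 CPM in the resistant ones. By CPM, all resistant libraries lay below the parental ones by a small margin. By FPKM the lines overlapped, with 160 to 183 in Huh7 P and 150 to 168 in Huh7 LR. The log2 difference of -0.13 (95% interval -0.28 to 0.01, edgeR adjusted p of 0.119) did not pass. *CD24* has 3 named pseudogenes in GENCODE 29, with the same limit as for *KRT19*.

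*SOX9* (ENSG00000125398, chromosome 17, 72121020 to 72126420) encodes the transcription factor that marks duct cells and progenitors in the liver. It reached 214, 183 and 181 CPM in the parental libraries, against 211, 181 and 186 CPM in the resistant ones. The highest library of each line stood above its other 2 by a similar amount, and the ranges almost coincided. The difference was -0.00 on the log2 scale, with a 95% interval of -0.19 to 0.19 (edgeR adjusted p of 0.99). Hence *SOX9*, *PROM1* and *CD24* were abundant in both lines, above at least 92.9% of annotated genes by FPKM, and their intervals exclude a 2-fold change in either direction.

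*KRT8* and *KRT18* encode the keratin pair of hepatocytes and were the most abundant of the set by FPKM. By mean CPM, *CD24* lay above *KRT18* in both lines. *KRT8* (ENSG00000170421, chromosome 12, 52897187 to 52949954, minus strand) reached 1276, 1489 and 1518 CPM in the parental libraries, against 949, 1643 and 1222 CPM in the resistant ones. The resistant libraries spread far more than the parental ones and enclosed all of them. Its log2 difference was -0.17 (95% interval -0.52 to 0.18, edgeR adjusted p of 0.423). *KRT18* (ENSG00000111057, chromosome 12, 52948871 to 52952901, plus strand) reached 461, 434 and 395 CPM in the parental libraries, against 348, 454 and 352 CPM in the resistant ones. Here too Huh7 LR replicate 2 was the high one. On the log2 scale the difference was -0.16 (95% interval -0.39 to 0.07, edgeR adjusted p of 0.239). Without Huh7 LR replicate 2, both passed the threshold of 0.05, with log2 fold changes of -0.39 for *KRT8* (edgeR adjusted p of 0.0186) and -0.29 for *KRT18* (edgeR adjusted p of 0.00896), and 4 markers were then lower. The 2 genes sit head to head and share 525 exon bases on opposite strands, and *KRT8* has 50 and *KRT18* 67 named pseudogenes in GENCODE 29. Whether counting used strand is not given in the sources used here, so reads from the overlap or from copies may be misplaced.

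The balance of type II to type I keratins was compared within libraries on FPKM values, which are scaled by length. The ratio of *KRT8* to *KRT18* was 2.32, 2.85 and 3.19 in Huh7 P, against 2.24, 3.03 and 2.88 in Huh7 LR. These ranges overlapped, and the mean log2 ratio differed by -0.04 (Huh7 LR minus Huh7 P). A two-sided exact permutation test gave p = 0.8, and 3 libraries against 3 cannot give less than 0.1. The ratio of *KRT8* and *KRT7* to *KRT18* and *KRT19* was 2.09, 2.51 and 2.78 in Huh7 P, against 2.17, 2.92 and 2.78 in Huh7 LR, a difference of 0.09 in mean log2 ratio (exact permutation p = 0.6). Adjusted over these 2 ratios, both p-values were 0.8. Within the type I keratins, *KRT19* made up 9.96% to 13.0% of the summed *KRT18* and *KRT19* FPKM in Huh7 P and 3.21% to 3.61% in Huh7 LR, without overlap (exact permutation p = 0.1, the smallest possible). This share follows from the fall of *KRT19* given above. Since *KRT19* was a small part of type I in both lines, its fall alone could move the ratio of types only a little.

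**Figure D3:**
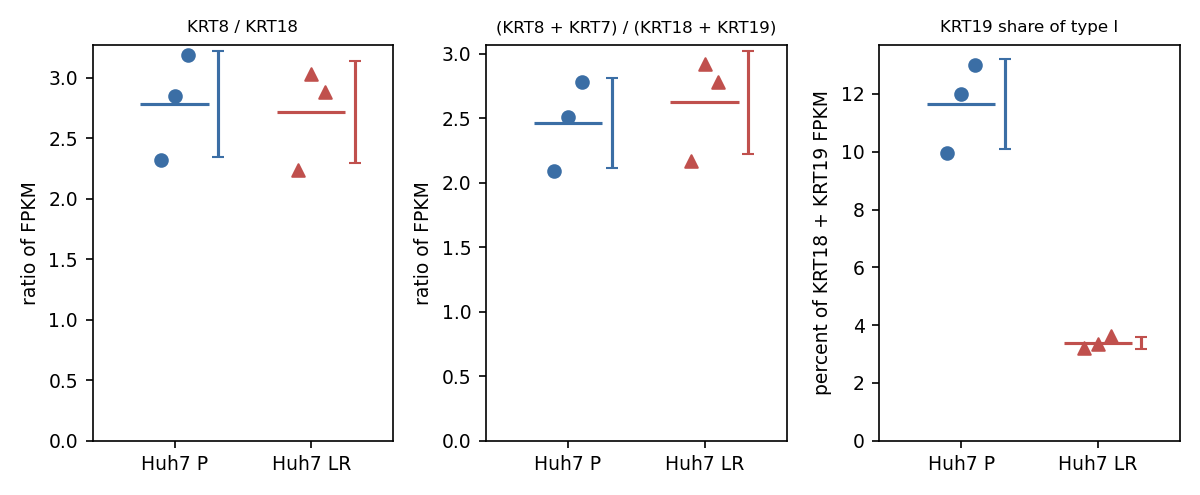
Keratin balance per library in Huh7 P (blue circles) and Huh7 LR (red triangles), with mean (bar) and SD (error bar), n = 3. The ratio of *KRT8* to *KRT18* FPKM and of type II to type I FPKM overlap between the lines, whereas the *KRT19* share of type I FPKM is 11.7% on average in Huh7 P and 3.39% in Huh7 LR.

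*KRT7* (ENSG00000135480, chromosome 12, 52232520 to 52252186), the type II partner of keratin 19 in bile ducts, had 0 counts in all Huh7 P libraries and 0, 3 and 0 in Huh7 LR. A count of 0 allows up to 3 counts, or 0.042 to 0.048 CPM at these depths, for counting error only, so no fold is given. *SPP1* (ENSG00000118785, chromosome 4, 87975650 to 87983426), which encodes osteopontin, had 6, 4 and 4 reads in the parental libraries, against 9, 3 and 6 in the resistant ones. These values overlapped (exact permutation p = 0.6). In order of FPKM, the members ran *KRT8*, *KRT18*, *CD24*, *EPCAM*, *PROM1*, *SOX9*, *KRT19*, *CD44*, *SPP1* and *KRT7* in both lines. *PROM1* and *SOX9* had overlapping libraries in both lines, and every other pair of neighbours was separate in both.

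The genes beside *CD44* and *KRT19* were then examined, taking the 2 nearest on each side with at least 1 CPM in 1 line. On the lower side of *CD44*, *PDHX*, which encodes a subunit of the pyruvate dehydrogenase complex, fell from a mean of 63.8 ± 2.65 to one of 39.0 ± 1.62 CPM (SD over 3 libraries), a log2 fold change of -0.71 (edgeR adjusted p of 1.76e-05). *APIP*, an enzyme gene of methionine salvage further along, had a log2 fold change of -0.32 (edgeR adjusted p of 0.0135), which was lost without Huh7 P replicate 2 (edgeR adjusted p of 0.0669), Huh7 P replicate 3 (0.0561) or Huh7 LR replicate 3 (0.0718). On the higher side, *TRIM44* rose (log2 fold change 0.36, edgeR adjusted p of 0.00226) and *LDLRAD3* fell (-0.78, edgeR adjusted p of 0.00524). *KRT15*, which encodes another type I keratin, lies 1088 bases from *KRT19*. Reads of it numbered 230, 213 and 289 in the parental libraries, against 119, 158 and 126 in the resistant ones, with all resistant libraries below the parental ones. It fell by less than 2-fold, with a log2 change of -0.90 ± 0.18 (standard error, edgeR adjusted p of 0.00196). *KRT23*, 585983 bases away on the same side, did not pass (0.29, edgeR adjusted p of 0.381). On the other side of *KRT19*, *EIF1* did not pass (0.16, edgeR adjusted p of 0.0749, or 0.0426 without Huh7 LR replicate 2) and *JUP*, the gene of plakoglobin, rose (0.59, edgeR adjusted p of 1.28e-04). *KRT15* and *KRT19* are paralogs, between which counting could have split some reads.

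**Figure D4:**
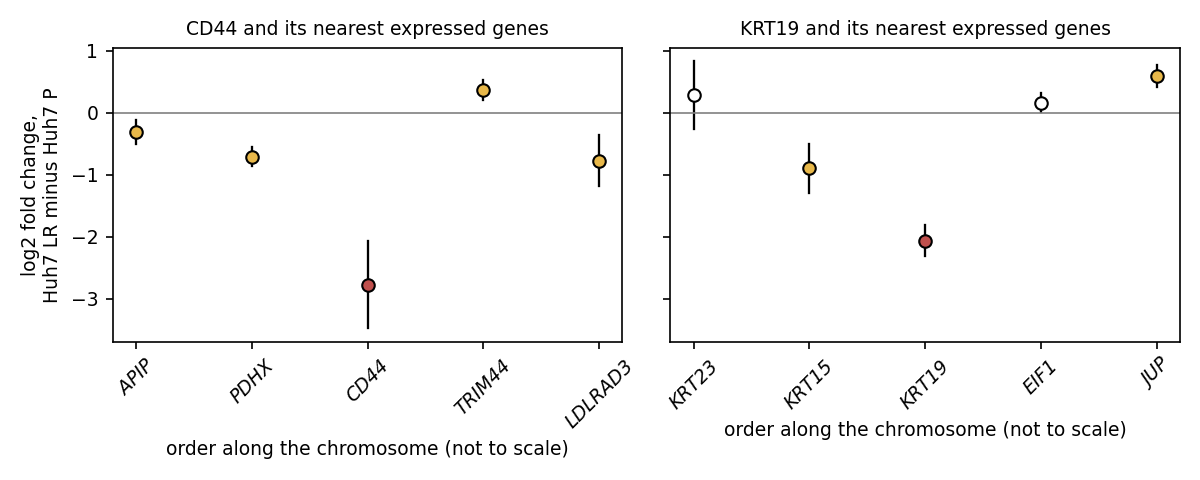
Log2 fold change (Huh7 LR minus Huh7 P, with 95% intervals) of *CD44*, of *KRT19* and of the nearest expressed genes along the chromosome, in order and not to scale. Red points are called, yellow points have an adjusted p under 0.05 and white points do not. Around *CD44*, *PDHX* lies at -0.71, *APIP* at -0.32, *TRIM44* at 0.36 and *LDLRAD3* at -0.78, and around *KRT19*, *KRT15* lies at -0.90, *KRT23* at 0.29, *EIF1* at 0.16 and *JUP* at 0.59.

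Other genes of stem and progenitor cells gave a mixed picture. Of 24 listed, 15 had enough counts to test, of which 5 rose and 7 fell at an adjusted p under 0.05, with a median log2 fold change of -0.06, where 45.7% of all genes and loci tested differed (23.3% higher and 22.4% lower). Of the 15, 2 were called higher and 1 lower, beside 4.43% and 1.78% of all. *THY1*, *NCAM1*, *CACNA2D1* and *PROM2* had 0 counts throughout, and *NANOG* and *SOX2* had at most 2 and 7 counts in a library. *MYC* had 6671, 5152 and 5328 reads in the parental libraries, against 2219, 2116 and 1763 in the resistant ones. This proliferation-driving transcription factor gene was called lower, from a mean of 86.0 ± 6.13 to one of 30.0 ± 4.10 CPM (SD over 3 libraries), with a log2 fold change of -1.52 (edgeR adjusted p of 1.35e-06). *CD47*, the gene of a surface signal that restrains phagocytosis, was called higher, with 35, 21 and 32 reads in the parental libraries, against 83, 140 and 147 in the resistant ones (log2 fold change 2.03, edgeR adjusted p of 1.8e-04). *KLF4*, a pluripotency factor gene, was called higher too (1.24, edgeR adjusted p of 7.12e-04). The calls of *CD47* and *KLF4* were lost when single libraries were left out. *CD47* was no longer called without Huh7 P replicate 1, 2 or 3 or Huh7 LR replicate 3 (edgeR adjusted p of 0.00111, 0.00115, 0.00126 and 0.00146 in that order). *KLF4* was no longer called without Huh7 P replicate 2 or 3 or Huh7 LR replicate 2 or 3 (edgeR adjusted p of 0.00355, 0.00199, 0.00262 and 0.00351). *TERT*, the catalytic subunit of telomerase, *LGR5*, a receptor that marks several adult stem cells, and *ALDH1A1*, a retinaldehyde-oxidising enzyme, fell by less than 2-fold (log2 fold changes of -0.90, -0.66 and -0.49), as did *FOXM1* and *SALL4* (-0.46 and -0.43), both transcription factor genes. *ICAM1*, an adhesion receptor gene, *ALCAM*, another, and *SOX4*, a transcription factor gene, rose by less than 2-fold (0.53, 0.37 and 0.29). Some of these small changes did not pass 0.05 without 1 library. This held for *ALCAM* without Huh7 P replicate 1 or 2 or Huh7 LR replicate 1 or 3 (edgeR adjusted p of 0.0668 to 0.0898), *SALL4* without Huh7 P replicate 1 or 3 or Huh7 LR replicate 2 or 3 (0.0611 to 0.0828) and *SOX4* without Huh7 P replicate 3 (0.052).

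Other genes of bile duct cells were counted in the same way. Of 24 listed, 20 were tested, of which 12 rose and 3 fell at an adjusted p under 0.05 (median log2 fold change 0.34), beside a background of 23.3% higher and 22.4% lower. The 12 became 8 without Huh7 P replicate 1 or 3 and 9 without Huh7 P replicate 2 or Huh7 LR replicate 2 or 3, and the number that fell stayed at 3 without each library. Of the 20, 3 were called higher and 1 lower, beside 4.43% and 1.78% of all genes and loci tested. *CFTR*, the chloride channel of duct cells, was called higher at a low level, from a mean of 1.02 ± 0.0248 to one of 3.24 ± 0.456 CPM (SD over 3 libraries, log2 fold change 1.67, edgeR adjusted p of 3.61e-05). *BICC1*, which encodes an RNA-binding protein of tubular epithelia, had a log2 fold change of 1.12 and *TFF3*, a secreted trefoil peptide of mucous epithelia, one of 1.08, and both were called higher. *NOTCH1* was called lower, from a mean of 26.4 ± 2.23 to one of 8.05 ± 0.793 CPM (SD over 3 libraries, log2 fold change -1.71, edgeR adjusted p of 8.60e-07). *NOTCH2* and *NOTCH3*, receptors of the same family, rose by less than 2-fold (0.48 and 0.83 on the log2 scale). The other 2 genes that fell were *CLDN4*, which encodes a tight junction protein, and *DCDC2*, which encodes a doublecortin-domain protein of cilia, with log2 fold changes of -0.67 and -0.70.

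**Figure D5:**
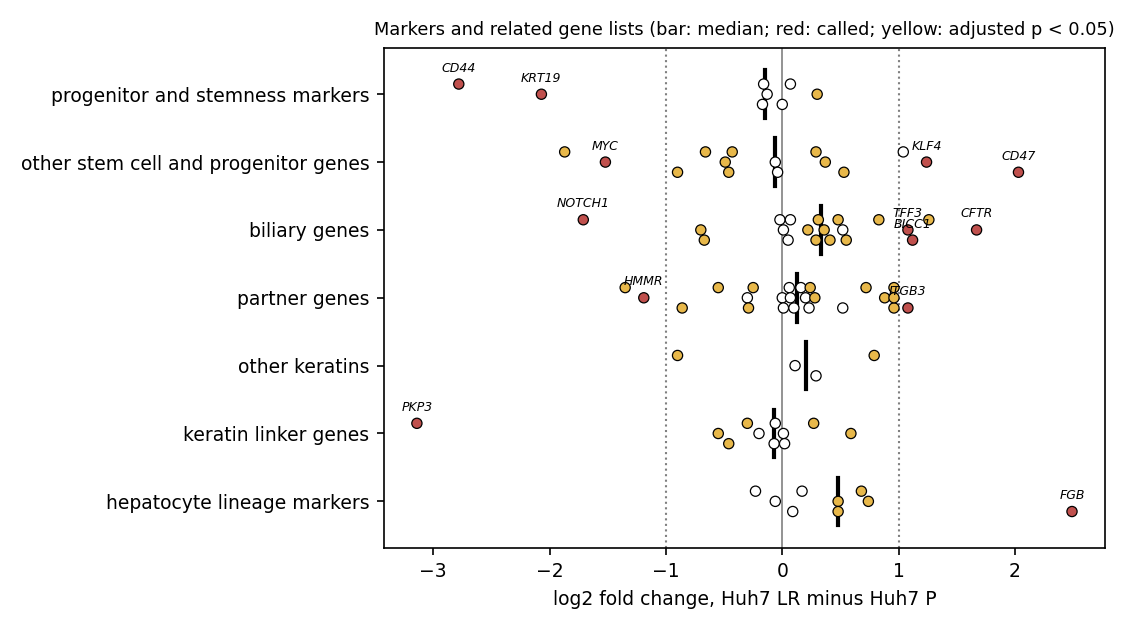
Log2 fold change (Huh7 LR minus Huh7 P) of each tested gene in 7 lists, with the list's median as a black bar. Red points are called and named, yellow points have an adjusted p under 0.05, white points do not, and dotted lines mark 2-fold. The medians lie at -0.15 for the progenitor and stemness markers, 0.34 for the biliary genes and 0.48 for the hepatocyte lineage genes.

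Partners of the marker proteins were listed as well, namely hyaluronan enzymes and receptors, linkers of CD44 to actin, regulators of its splicing, junction proteins, proteases of EpCAM and CD44 and their inhibitors, integrins that bind osteopontin, and other binding partners. Of 30 listed, 24 were tested, of which 8 rose and 6 fell at an adjusted p under 0.05 (median log2 fold change 0.13), beside the same 23.3% and 22.4% of all. *HMMR*, a further hyaluronan-binding protein that also acts at the mitotic spindle, was called lower, with 3748 to 4701 reads in the parental and 1748 to 1944 in the resistant libraries (log2 change -1.19, edgeR adjusted p of 6.54e-06). *ITGB3*, an integrin chain of an osteopontin receptor, was called higher (1.08, edgeR adjusted p of 5.92e-05), but stayed just under 2-fold without Huh7 P replicate 3 (log2 fold change 0.99). *CDH1*, which encodes the junction protein E-cadherin, rose by 0.96 on the log2 scale (edgeR adjusted p of 2.97e-06). *MSN*, *HAS1* and *HAS2* had 0 counts in all libraries. Of 35 other keratin genes, 26 had 0 counts in all libraries and 4 were tested. *KRT222* was higher (0.79, edgeR adjusted p of 0.00456), *KRT15* was lower, and *KRT10* and *KRT23* did not pass. Of 12 genes that link keratins to junctions or organelles, 11 were tested, of which 2 were higher and 4 lower at that threshold (median log2 fold change -0.07). *PKP3*, a desmosomal plaque protein gene of low level, had 103, 84 and 118 reads in the parental libraries, against 14, 8 and 13 in the resistant ones, and was called lower with a log2 fold change of -3.14 (edgeR adjusted p of 2e-05).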

How the data were processed

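The authors deposited 1 table with a raw read count, not normalized, and an FPKM value, which the authors had scaled for length and depth, for each gene in each of 6 libraries. Per the labels, poly(A) RNA was made into libraries with a NEBNext Ultra kit. The submitters' processing notes name TopHat2, Cufflinks, DESeq and the mouse build mm10, although the identifiers are human. Versions, annotation and strandedness are not given in the sources used here. The extraction text of the labels names an insect. A total of 34 lines that name no gene were left out. Coordinates are those of GENCODE 29 (GRCh38), which held all 10 members by identifier and symbol. The per-library totals (62738937 to 71427573 counts) limit only the genes at a few counts.

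The count test was run with edgeR 4.0.16 in R 4.3.3 (filterByExpr with a minimum count of 10 and a minimum total of 15, TMM, quasi-likelihood test), on all 6 libraries with group as the 1 factor. The biological coefficient of variation was 12.7%. The standard error of a fold change was its size divided by the root of the F statistic. The study calls the samples independent and does not describe how they differ, so p-values measure the spread between these samples, which may be technical. Libraries of a line differed by far more than sampling noise (chi-square per degree of freedom of 13.2 or more). Alternatives used DESeq2 1.42.0, limma 3.58.1 (its trend test on log2(FPKM + 0.1) and on log2(FPKM + 1), at least 0.5 FPKM in 3 libraries), other filters, a replicate block and leaving out each library. The main edgeR fit, the DESeq2 test and the filtered limma test with 0.1 added were run on simulated data, the last on CPM. The other alternatives were not. Figures were drawn with matplotlib 3.10.9. The members and lists were chosen with earlier results of these data known. Named genes are the members, called genes of each list (at most 6, at least 1 CPM in 1 line), *MYC* and rows sharing exon bases with a member. *FGFBP2*, which shares 166 exon bases with *PROM1*, had at most 2 counts. Neighbouring genes, genes listed at 0, marker genes of other cells, *ALB*, *AFP*, *LIN28B*, *TERT*, *LGR5*, *ALDH1A1*, *FOXM1*, *SALL4*, *ICAM1*, *ALCAM*, *SOX4*, *CDH1*, *KRT222*, *KRT10*, *NOTCH2*, *NOTCH3*, *CLDN4* and *DCDC2* were named after their values were seen.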

Additional observations from a re-analysis of the deposited data

How the results depend on the processing

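*CD44* and *KRT19* stayed lower and *EPCAM* higher at an adjusted p under 0.05 in all 14 alternatives run for each gene, where *CD44* ranged from -3.38 to -0.92, *KRT19* from -2.19 to -1.92 and *EPCAM* from 0.27 to 0.34 on the log2 scale. *CD44* was called in 12 of 14, since log2(FPKM + 1) gave -0.92, as that pseudocount is near the gene's level, and unfiltered log2(FPKM + 0.1) gave an adjusted p of 0.00236. Of 112 values for the 8 tested markers, 110 kept their side of 0.05. The others, *KRT8* and *KRT18* without Huh7 LR replicate 2, raised the lower markers from 2 to 4 (cause not tested). With each library left out in turn, *KRT8* lay between -0.39 and 0.00, *KRT18* between -0.29 and -0.10 and the ratio of type II to type I keratins between -0.02 and 0.22. Of 595 values for 43 other genes, 572 kept their side of 0.05 and none past it changed direction. The fall of *SALL4* did not pass on log2(FPKM + 0.1) (limma adjusted p of 0.0517, or 0.113 without a filter) or on log2(FPKM + 1) (limma adjusted p of 0.0501).

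The trend test of limma on log2(FPKM + 1) called 268 genes and loci higher and 84 lower, with 1 marker called lower, 0 stem cell genes, 1 biliary gene and 0 partner genes called higher, 0 biliary genes and 0 keratin linkers called lower, and 2 linkers lower at 0.05. On log2(FPKM + 0.1), 0 stem cell genes were called higher (*KLF4* kept 1.23, with an adjusted p of 0.00123), with 0 linkers called lower and 2 lower at 0.05. Both filtered FPKM tests left out *CD47* and *PKP3*. Unfiltered, that scale gave 353 higher and 120 lower calls among all genes and loci, with 1 marker called lower and 0 stem cell or partner genes called higher. With at least 10 counts in every library, 0 linkers were called, since this filter removed *PKP3*, which was called in each alternative that tested it. Over libraries left out, stem cell genes called higher ranged from 0 to 2, partner genes from 0 to 3, and linkers from 1 to 2 higher and 2 to 5 lower at 0.05. At the same threshold, biliary genes ranged from 8 to 12 higher (8 on unfiltered log2(FPKM + 0.1)), stem cell genes from 4 to 5 higher and 5 to 7 lower, and partner genes from 7 to 9 higher and 4 to 6 lower. Same-numbered libraries of the lines were nearly uncorrelated in their deviations (0.03 for each of 3 pairs), and the other pairs lay between -0.03 and 0. Such values cannot decide whether same-numbered libraries share a batch. The replicate block gave -2.87 for *CD44*, -2.08 for *KRT19*, 0.30 for *EPCAM* and 783 higher and 316 lower calls, and took *AFP* past 0.05 (-0.22, edgeR adjusted p of 0.0221). Summing markers with pseudogenes was not run, as the table used here lists no row of that kind.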

Other observations

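*AFP*, a fetal liver gene, was at 22997 ± 3405 CPM in Huh7 P and 19620 ± 1196 CPM in Huh7 LR (SD, n = 3), a log2 fold change of -0.23 (edgeR adjusted p of 0.0923, or 0.00992 without Huh7 P replicate 1), and *ALB*, the product of mature hepatocytes, rose from a mean of 12951 ± 1185 to one of 21566 ± 1204 CPM (SD over 3 libraries, log2 fold change 0.74, edgeR adjusted p of 4.68e-05). *LIN28B*, a stem cell gene that blocks let-7 maturation, had 1176, 6014 and 945 reads in the parental libraries, against 811, 713 and 841 in the resistant ones, so that 1 parental library stood far above the rest. Its log2 fold change was -1.87 with all libraries (edgeR adjusted p of 0.0227), -0.40 without Huh7 P replicate 2 (edgeR adjusted p of 0.0400), and did not pass without Huh7 LR replicate 2 (edgeR adjusted p of 0.0702) or 3 (edgeR adjusted p of 0.0609), or by the Wald test of DESeq2 (adjusted p of 0.0764). On log2(FPKM + 0.1) its difference was -0.63 (limma adjusted p of 0.0211, or 0.0739 without a filter), and the replicate block gave -1.26.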
